A study of Mus musculus with 4 samples.

Results

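The genes carried by mitochondrial DNA itself were followed in brain endothelial cells of Pd1fl/fl and Pd1cKO-Tie2 mice. They were taken as every row of the deposited gene tables whose symbol begins with "mt-", which gave 13 of the 21578 genes in the joined tables. These were both ribosomal RNA genes and 11 protein-coding genes. No transfer RNA gene was listed, so that class could not be compared. The mice were of the C57BL/6 strain and at P0, the day of birth. Pd1fl/fl mice, the controls, carry Pd1 alleles flanked by loxP sites. Pd1cKO-Tie2 mice carry the same floxed alleles together with Tie2-Cre, a recombinase driven by a promoter that is active in endothelial cells and also in the lineage of blood cells. Total RNA of cells that had been labelled for CD31 and CD45 and sorted by flow cytometry was sequenced, with 2 libraries per genotype. The labels do not say whether these came from separate animals or litters, so the p-values measure the spread between libraries, which may be technical.

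Mitochondrial DNA of mammals is a small circle that is read from both strands into long precursor RNAs. Transfer RNAs lie between most of the other genes, and their excision by RNase P and ELAC2 releases the ribosomal and messenger RNAs. The mitochondrial ribosome contains 1 molecule of each ribosomal RNA, mt-Rnr1 (12S) in its small subunit and mt-Rnr2 (16S) in its large subunit. All proteins encoded by the circle are subunits of the respiratory chain or of ATP synthase: the Nd genes of complex I, mt-Cytb of complex III, the Co genes of complex IV and the Atp genes of ATP synthase.

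The total count of a library lay between 13715837 and 14359990 in Pd1fl/fl and between 14157027 and 24147311 in Pd1cKO-Tie2. Pdcd1 (ENSMUSG00000026285), the gene deleted by Tie2-Cre, had 32 counts in Pd1fl/fl 1 and 0 in both Pd1cKO-Tie2 libraries. Each such 0 was listed as a count, and it does not exclude an expected count of up to 3. Pd1fl/fl 2 had no listed count of Pdcd1, which leaves room for up to 4 counts there. Pdcd1 therefore did not tell Pd1fl/fl 2 from the Pd1cKO-Tie2 libraries. Levels are given as counts scaled to library size by edgeR's TMM method and expressed as CPM (TMM CPM), and levels of different genes are set side by side only after division by gene length (TMM CPM per kb). Endothelial markers were abundant in every library, with a summed level of 10994 to 14904 TMM CPM for 8 genes. Pd1fl/fl 1 stood apart by 5 neutrophil markers, which summed to 721.0 TMM CPM there and to 0.633 to 1.88 TMM CPM elsewhere.

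Of the 37 genes annotated on the mouse mitochondrial chromosome in GRCm38, 24 were not listed. These were all 22 transfer RNA genes, which are 59 to 75 bases long, and the protein-coding genes mt-Atp8 and mt-Nd3. A gene was listed in a table of a library pair only if both libraries held a count or one held at least 5, so each of the unlisted genes can hold at most 4 counts in a library. The ribosomal genes lie head to tail on the heavy-strand transcript with 1 transfer RNA between them. mt-Rnr1 occupies MT:70-1024 (955 bases), mt-Tv MT:1025-1093 and mt-Rnr2 MT:1094-2675 (1582 bases), all on the plus strand and with no base between them. The ends of both ribosomal RNAs and the transfer RNA that separates them are shown because these neighbours on 1 precursor differed widely in their counts. Capitals mark runs of at least 4 A in the last 60 bases of each ribosomal RNA (GENCODE M21 transcripts, GRCm38).
mt-Rnr1, MT:965-1024: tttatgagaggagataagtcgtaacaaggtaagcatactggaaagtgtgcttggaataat
mt-Tv, MT:1025-1093: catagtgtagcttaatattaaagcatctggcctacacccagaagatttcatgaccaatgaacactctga
mt-Rnr2, MT:2616-2675: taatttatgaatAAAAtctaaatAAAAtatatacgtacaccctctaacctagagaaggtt
The last 60 bases of mt-Rnr1 hold no such run. Over the whole gene, A made up 37.8% of mt-Rnr1 and 38.2% of mt-Rnr2. The longest run of A was 5 bases in mt-Rnr1 and 7 bases in mt-Rnr2, and runs of 6 or more numbered 0 and 4. Whether the libraries were made from RNA selected by its A tail or from RNA depleted of ribosomal RNA is not given in the sources used here.

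Levels per length spread over several orders of magnitude, although most of these genes are cut from the same precursor. mt-Nd1 stood highest, with 9619 and 7837 TMM CPM per kb in the Pd1fl/fl libraries and 6723 and 9501 in the Pd1cKO-Tie2 libraries. mt-Cytb had 8884 and 6972 TMM CPM per kb in Pd1fl/fl beside 7060 and 9035 in Pd1cKO-Tie2, so that its libraries overlapped those of mt-Nd1. Then came mt-Co1, with genotype means of 5417 ± 803.2 (SD, n = 2) and 5524 ± 952.5 TMM CPM per kb in Pd1fl/fl and Pd1cKO-Tie2. mt-Nd1, mt-Co1 and mt-Cytb together took 72.5% to 75.4% of the mitochondrial counts of a library. mt-Rnr2 followed with means of 3321 ± 435.9 and 3741 ± 446.8 TMM CPM per kb. mt-Nd4 and mt-Nd2 were lower, at means of 1026 ± 162.3 and 692.1 ± 66.8 TMM CPM per kb in Pd1fl/fl. They were followed by mt-Nd6, the only protein-coding gene of the light strand, at 472.2 ± 57.0, and by mt-Nd5 at 352.0 ± 30.4. At the low end in Pd1fl/fl stood mt-Atp6 with 144.7 ± 28.1, mt-Rnr1 with 144.1 ± 28.3, mt-Co2 with 26.8 ± 8.07 and mt-Co3 with 5.38 ± 1.26 TMM CPM per kb. mt-Nd4l held at most 3 counts in any library and did not pass edgeR's filter on low counts, which the other 12 genes passed. In Pd1fl/fl, the pairs mt-Nd1 and mt-Cytb, and mt-Atp6 and mt-Rnr1, were neighbours whose libraries overlapped. The other neighbours in this order did not overlap. In Pd1cKO-Tie2, mt-Rnr1 stood at 395.9 ± 10.99 TMM CPM per kb, level with mt-Nd6 at 380.6 ± 121.8 and mt-Nd5 at 341.1 ± 87.0, whose libraries overlapped with its own.

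**Figure D1:**
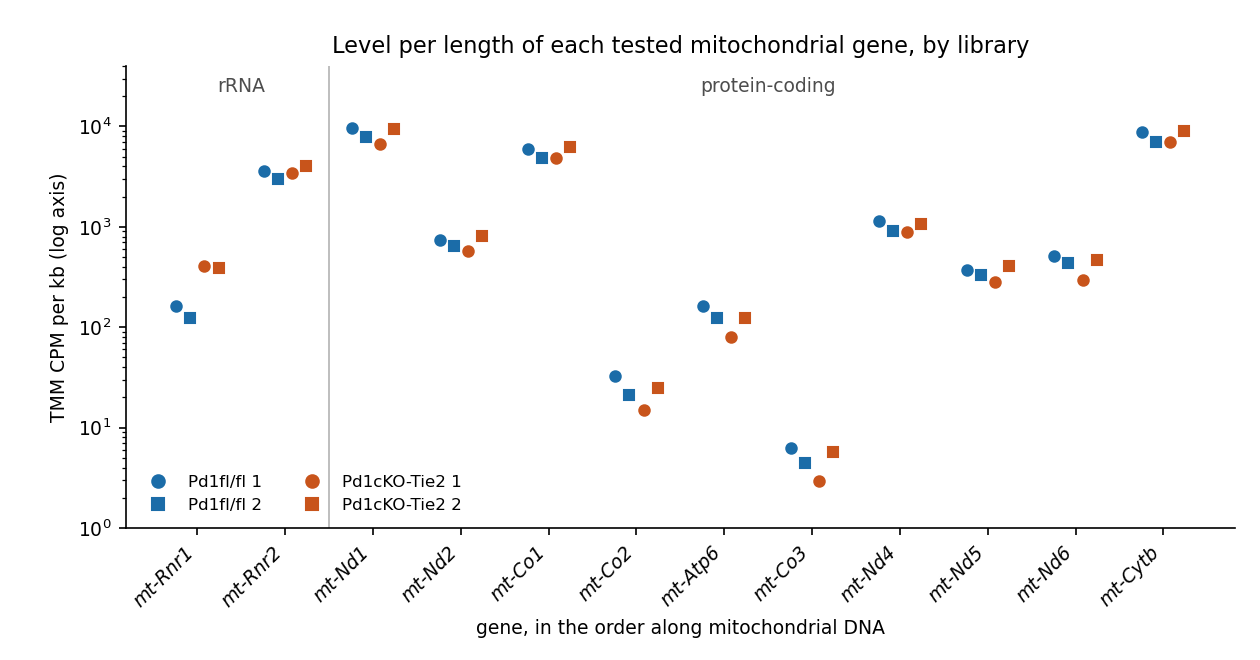
TMM CPM per kb (log axis) of the 12 tested mitochondrial genes, in their order along the DNA. Circles and squares are the libraries numbered 1 and 2 of Pd1fl/fl (blue) and Pd1cKO-Tie2 (orange). Both orange points of mt-Rnr1, at 404 and 388, lie above its blue points at 164 and 124, while for the other genes but mt-Atp6 the colours overlap.

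Among the listed protein-coding genes, the lowest were those with a near-exact copy in the nuclear genome. Each gene was cut into all windows of 50 bases, and each window was looked up in the nuclear transcripts of GENCODE M21. For 5 protein-coding genes, 97.99% to 100% of the windows were present there: mt-Co2, mt-Co3, mt-Atp6, mt-Nd4l and mt-Nd3. 4 of these held the lowest levels per length among the listed protein-coding genes, and mt-Nd3 was unlisted. For mt-Nd4 the share was 62.2% and for mt-Co1 51.1%. It was 8.19% for mt-Nd2, 7.61% for mt-Nd5, 1.04% for mt-Rnr2, and 0% for mt-Rnr1, mt-Nd1, mt-Nd6, mt-Cytb and the unlisted mt-Atp8. Only annotated transcripts were searched, so 0% does not exclude a copy elsewhere in the nuclear genome. mt-Atp8 starts between mt-Co2 and mt-Atp6. Any bases without an annotated transcript between the nuclear copies of those neighbours were not searched. The closest copies of these 7 genes with a share over 50% form 1 block on the minus strand of chromosome 1 (GRCm38, chr1:24611535-24616197, 4663 bases), annotated as 7 pseudogenes. Over their aligned bases, 6 of the 7 had 0 substitutions against the mitochondrial gene. Reads from such a stretch cannot be assigned to one place, and the way the authors' counting treated them is not stated, so the counts of these genes and copies are uncertain. Among the other copies that were aligned, more diverged ones, whole or in part, of mt-Rnr2, mt-Nd2, mt-Co1, mt-Co2 and mt-Nd5 lie on chromosomes 2, 4, 6 and 13. This list is not complete. At most 2 copies per gene were aligned, and copies on 1 chromosome were left out. mt-Atp6 shared windows with 2 nuclear genes, of which only the closest, on chromosome 1, was aligned. A stretch of mt-Co2 is shown with its exact copy on chromosome 1, Gm28661, and a diverged copy on chromosome 2, Gm13341. Capitals mark the 6 positions at which Gm13341 differs, T462C, C474T, C477T, A492C, G493A and C501A, counted from 1 at the start of mt-Co2.
mt-Co2, MT:7457-7516, plus strand: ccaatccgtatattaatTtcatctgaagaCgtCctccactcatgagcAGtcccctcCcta
Gm28661, chr1:24615062-24615121, minus strand: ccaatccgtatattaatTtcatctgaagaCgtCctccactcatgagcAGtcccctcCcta
Gm13341, chr2:22587471-22587530, minus strand: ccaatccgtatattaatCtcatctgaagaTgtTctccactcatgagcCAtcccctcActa

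**Figure D2:**
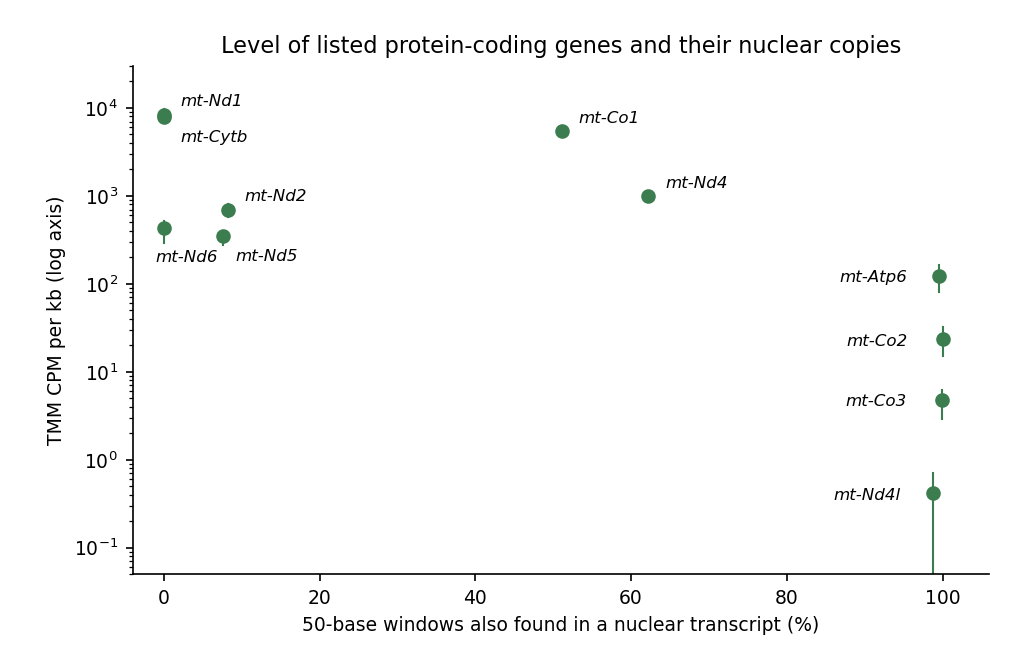
Level per length (TMM CPM per kb, log axis) of the 11 listed protein-coding genes against the percentage of their 50-base windows that also occur in a nuclear transcript. Points are means over the 4 libraries and lines run from the lowest to the highest library (for mt-Nd4l the lowest is 0 and lies off the axis). The 4 genes at 98.8% to 100% stand below the others.

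Counts were also assigned to the exact copies, although reads of such a stretch cannot be told apart from those of the mitochondrial gene. Gm10925, the copy of mt-Atp6, had 1815 and 1358 counts in Pd1fl/fl, against 1396 and 1403 in Pd1cKO-Tie2, beside 1619, 1209, 1303 and 1148 counts of mt-Atp6. The nuclear copy thus held more counts than the mitochondrial gene in all 4 libraries, at 81.8 to 93.3 counts of mt-Atp6 per 100 of Gm10925. mt-Co2 had 321, 205, 247 and 231 counts, and Gm28661 129, 107, 92 and 92 counts. mt-Co3 had 71, 50, 55 and 61 counts, and its copy Gm28437 48, 35, 42 and 37 counts. On chromosome 2, the diverged copies Gm13341 of mt-Co2, Gm13340 of mt-Co1 and Gm13339 of mt-Nd2 held 0 to 3, 8 to 15 and 0 to 1 counts. For mt-Nd4 and mt-Co1, with 62.2% and 51.1% of their windows copied, the mitochondrial gene held nearly all counts. Gm28439 had 117 to 164 counts against 17863 to 28984 of mt-Nd4, and Gm29216 had 181 to 265 counts against 106581 to 179438 of mt-Co1. None of the 5 copies in the block that had counts met the criterion for a change between the genotypes (log2 fold changes of -0.64 to -0.18, edgeR p of 0.208 to 0.750). The log2 ratio of mt-Atp6 to Gm10925 counts was -0.16 and -0.17 in Pd1fl/fl beside -0.10 and -0.29 in Pd1cKO-Tie2, so the genotypes overlapped. They also overlapped for mt-Co3 to Gm28437 and for mt-Nd4 to Gm28439. For mt-Co1 to Gm29216 the log2 ratio was higher in both Pd1cKO-Tie2 libraries, with 9.29 and 8.65 against 9.82 and 9.50, as it was for mt-Co2 to Gm28661, with 1.32 and 0.94 against 1.42 and 1.33 (two-sided exact permutation p = 0.333 each, the smallest that can be reached).

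The genotypes were then compared gene by gene. mt-Rnr1 (ENSMUSG00000064337), the RNA of the small ribosomal subunit, rose in Pd1cKO-Tie2 cells, and it was the 1 gene of the 12 tested to meet the criterion in the study's methods, which asks for a fold change of 2 or more and an unadjusted p of no more than 0.05. Over all 15909 tested genes, 4.02% met it in either direction, 1.41% with a higher and 2.61% with a lower level in Pd1cKO-Tie2. Its raw counts were 2264 and 1685 for the Pd1fl/fl libraries, beside 9232 and 5072 for the Pd1cKO-Tie2 libraries. This corresponds to 156.7 and 118.4 TMM CPM in Pd1fl/fl, against 385.6 and 370.7 TMM CPM in Pd1cKO-Tie2, so the groups did not overlap. The log2 fold change was 1.46 (SE 0.19), or 2.75-fold, with an unadjusted p of 3.03e-04 and a Benjamini-Hochberg adjusted p of 0.735 (edgeR, quasi-likelihood). Adjusted values did not pass 0.05 there, and they depended on the test, from 7.61e-09 in DESeq2 to 0.909 in edgeR without Pd1cKO-Tie2 1. By edgeR, 0 genes of the whole table had an adjusted p under 0.05, and 1016 genes (6.39%), among them 1 of the 12 mitochondrial genes, had an unadjusted p under 0.05. DESeq2, run on every gene with a count, placed 4.34% of all genes and 1 of 13 mitochondrial genes past the criterion. At an adjusted p under 0.05 it called 114 genes (0.672% of those with an adjusted p), and mt-Rnr1 was the 1 mitochondrial gene among them.

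**Figure D3:**
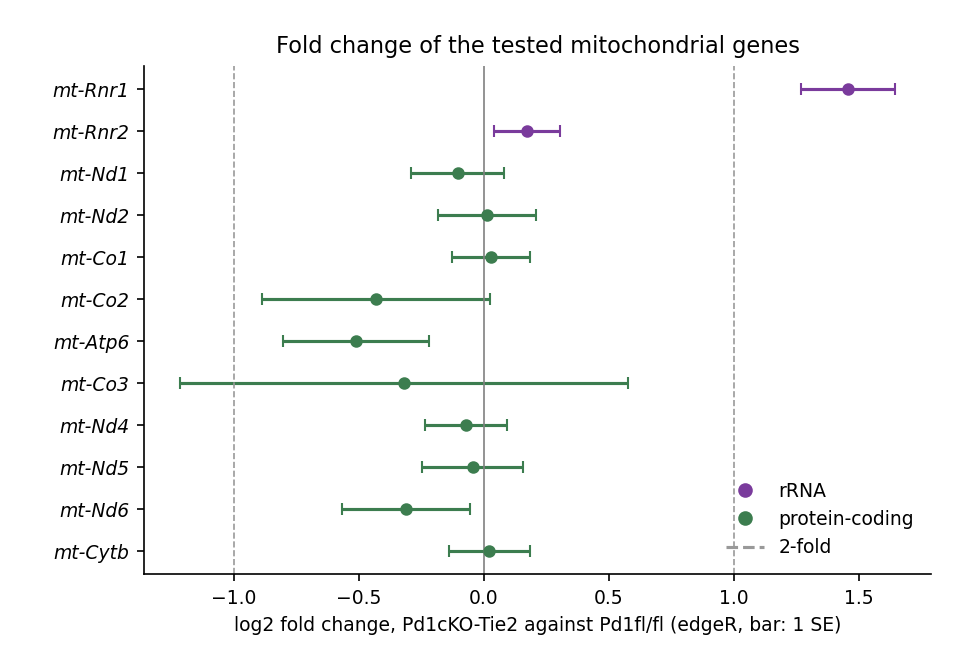
Log2 fold change of the 12 tested mitochondrial genes, Pd1cKO-Tie2 against Pd1fl/fl, from edgeR, with bars of 1 SE and dashed lines at 2-fold. mt-Rnr1 lies at 1.46, beyond the line, and the other 11 genes lie between -0.51 and 0.17.

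mt-Rnr2, the RNA of the large subunit, did not meet the criterion. It had 82947 and 67807 counts in the Pd1fl/fl libraries and 129745 and 87812 in the others, which is 5742 and 4766 against 5418 and 6418 TMM CPM. The libraries of the genotypes overlapped, and the log2 fold change was 0.17 (SE 0.13, edgeR adjusted p = 0.979). Both RNAs are cut from the same precursor, with the 69 bases of mt-Tv between them. Whether they moved unequally was tested on their ratio within each library.

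None of the protein-coding genes met the criterion. Their median log2 fold change was -0.088 over 10 tested genes, beside -0.0038 over all tested genes. Among the complex I genes, the values were -0.11 (SE 0.19) for mt-Nd1, 0.011 (SE 0.20) for mt-Nd2, -0.071 (SE 0.16) for mt-Nd4, -0.046 (SE 0.20) for mt-Nd5 and -0.31 (SE 0.25) for mt-Nd6. mt-Cytb of complex III had a log2 fold change of 0.022 (SE 0.16), with 10163 and 7976 TMM CPM in Pd1fl/fl beside 8076 and 10336 in Pd1cKO-Tie2. In complex IV, mt-Co1 had 0.028 (SE 0.16), mt-Co2 -0.43 (SE 0.46) and mt-Co3 -0.32 (SE 0.90). The sign of the smallest of these, for mt-Nd2, mt-Co1 and mt-Cytb, turned with scaling by library size alone. mt-Atp6 of ATP synthase was the only gene with both Pd1cKO-Tie2 libraries below both Pd1fl/fl libraries, at 112.1 and 85.0 against 54.4 and 83.9 TMM CPM. Its log2 fold change was -0.51 (SE 0.29, edgeR adjusted p = 0.920), and its counts are among the uncertain ones. Of the 12 tested genes, 1 had both Pd1cKO-Tie2 libraries above both Pd1fl/fl libraries and 1 had both below, where the shares over all tested genes were 17.7% and 18.1%. The spread within Pd1cKO-Tie2 was wide: 8 of the 10 protein-coding genes were lowest in Pd1cKO-Tie2 1, the deepest library, and 4 were highest in Pd1cKO-Tie2 2. The other 6 were highest in Pd1fl/fl 1.

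The mitochondrial share of a library overlapped between the genotypes. All listed mitochondrial genes together took 3.82% and 3.19% of the counts in Pd1fl/fl, against 3.01% and 3.79% in Pd1cKO-Tie2. The 95% Wilson intervals of these shares were at most 0.0199 percentage points wide and cover counting error only, so the libraries differed by far more than counting error. The difference between the genotypes was -0.10 percentage points (two-sided exact permutation p = 0.667 for 2 against 2 libraries, where the smallest p that can be reached is 0.333). The sign of this difference turned with the scaling and with single libraries: it was 0.29 percentage points without Pd1cKO-Tie2 1 and 0.21 without Pd1fl/fl 1. The protein-coding genes took 3.22% and 2.68% in Pd1fl/fl beside 2.43% and 3.13% in Pd1cKO-Tie2, which overlapped as well. The ribosomal RNA genes took 0.593% and 0.507% in Pd1fl/fl, against 0.576% and 0.656% in Pd1cKO-Tie2. In bulk samples, a change in RNA per cell cannot be told apart from a change in which cells are present.

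Ratios within a library need no scaling between libraries, and they separated the genotypes where the shares did not. mt-Rnr1 stood at 2.73 and 2.48 counts per 100 counts of mt-Rnr2 in Pd1fl/fl beside 7.12 and 5.78 in Pd1cKO-Tie2. The mean log2 ratio was -5.26 ± 0.096 (SD, n = 2) in Pd1fl/fl and -3.96 ± 0.21 in Pd1cKO-Tie2, a difference of 1.30. The libraries did not overlap, and the exact permutation p was 0.333, the smallest that can be reached. The difference was 1.15 without Pd1cKO-Tie2 1 and at least that without each of the other libraries. Both ribosomal RNAs together stood at 18.4 and 18.9 counts per 100 protein-coding counts in Pd1fl/fl, against 23.6 and 20.9 in Pd1cKO-Tie2. This difference of 0.25 on the log2 scale fell to 0.17 without Pd1cKO-Tie2 1. mt-Rnr2 alone had 17.9 and 18.5 counts per 100 protein-coding counts in Pd1fl/fl beside 22.1 and 19.8 in Pd1cKO-Tie2, a difference of 0.20 that fell to 0.12 without the same library. mt-Nd6, of the light strand, lay the other way, lower against the heavy-strand genes in both Pd1cKO-Tie2 libraries. Since the use of strand in counting is not given, reads of mt-Nd6 and of heavy-strand RNA opposite to it cannot be told apart. It had 0.837 and 0.876 counts per 100 heavy-strand protein-coding counts in Pd1fl/fl, against 0.627 and 0.753 in Pd1cKO-Tie2. The difference in log2 ratio was -0.32, and -0.19 without Pd1cKO-Tie2 1. For each of these ratios the genotypes did not overlap and the exact permutation p was 0.333. Together with the 5 ratios of a gene to its nuclear copy, 10 ratios were compared, of which 7 did not overlap. Any ratio without overlap has an exact permutation p of 0.333 here. Many of the ratios share counts, so they are not independent, and such ratios were not formed for other genes as a background. No adjusted value can fall below 0.333, so none passed 0.05. The ratios to protein-coding counts moved by less when the genes copied over more than 50% of their length were left out than when any library was.

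**Figure D4:**
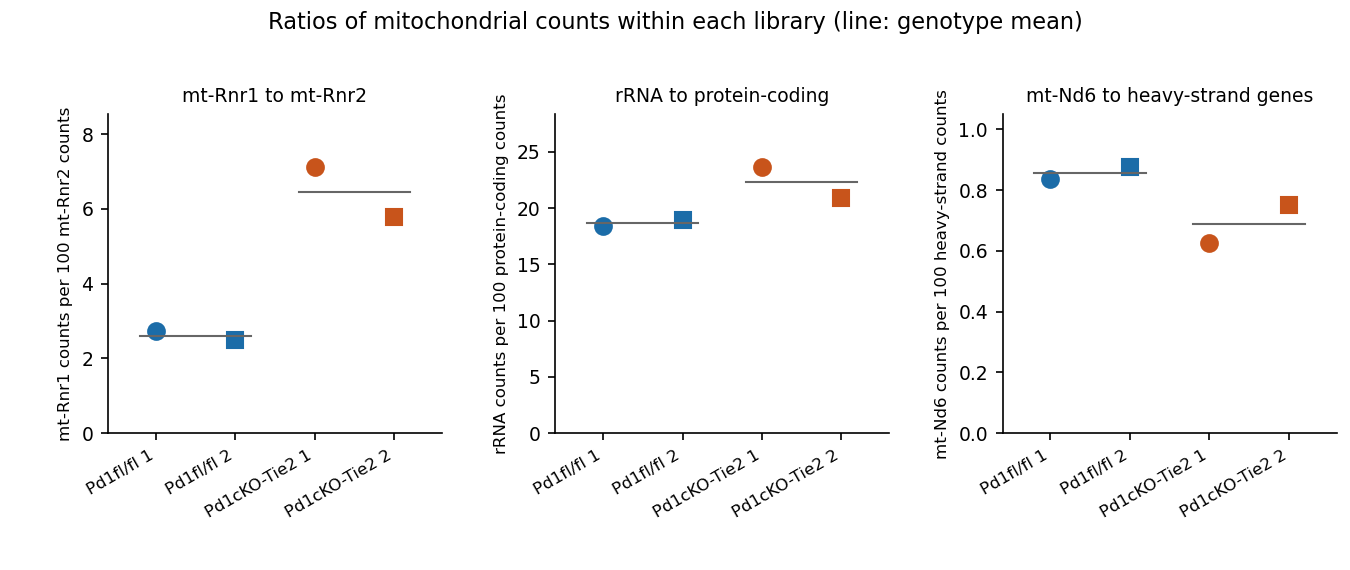
Counts of mt-Rnr1 per 100 of mt-Rnr2, of ribosomal RNA per 100 of protein-coding genes, and of mt-Nd6 per 100 of the heavy-strand protein-coding genes, in each library. Circles and squares are the libraries numbered 1 and 2, the lines are genotype means, and each axis starts at 0. The first ratio is 2.73 and 2.48 in Pd1fl/fl (blue) and 7.12 and 5.78 in Pd1cKO-Tie2 (orange), and the last is lower in both orange libraries.

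The make-up of the mitochondrial counts was set out in the same way, as the share of each gene among all mitochondrial counts of its library. These shares add up to the whole, so they are not independent of each other. mt-Rnr1 made up 0.413% and 0.386% of the mitochondrial counts in Pd1fl/fl beside 1.27% and 0.946% in Pd1cKO-Tie2. mt-Rnr2 made up 15.1% and 15.5% in Pd1fl/fl, against 17.9% and 16.4% in Pd1cKO-Tie2. mt-Co1 was the third gene with a larger share in both Pd1cKO-Tie2 libraries, at 24.4% and 24.4% against 24.7% and 24.4%, a shift of 0.17 percentage points. The shares of 6 of the 12 tested genes were smaller in both Pd1cKO-Tie2 libraries: mt-Nd1, mt-Co2, mt-Atp6, mt-Co3, mt-Nd4 and mt-Nd6. On the TMM CPM scale, by contrast, 2 of the 12 genes did not overlap. On that scale, 17.7% of all tested genes lay higher and 18.1% lower in both Pd1cKO-Tie2 libraries. For shares of mitochondrial counts no such background exists, so whether 9 of the 12 genes without overlap is unusual was not tested. The difference was widest in percentage points for mt-Nd1, at 24.3% and 24.4% against 21.2% and 23.2%. mt-Nd6 had 0.701% and 0.730% in Pd1fl/fl beside 0.504% and 0.618% in Pd1cKO-Tie2. mt-Cytb, at 26.8% and 26.0% against 26.6% and 26.4%, overlapped, as did mt-Nd2 and mt-Nd5. For 8 of the 9 genes whose libraries did not overlap, all but mt-Nd4, Pd1cKO-Tie2 1 lay farther from the mean of Pd1fl/fl than Pd1cKO-Tie2 2 did.

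**Figure D5:**
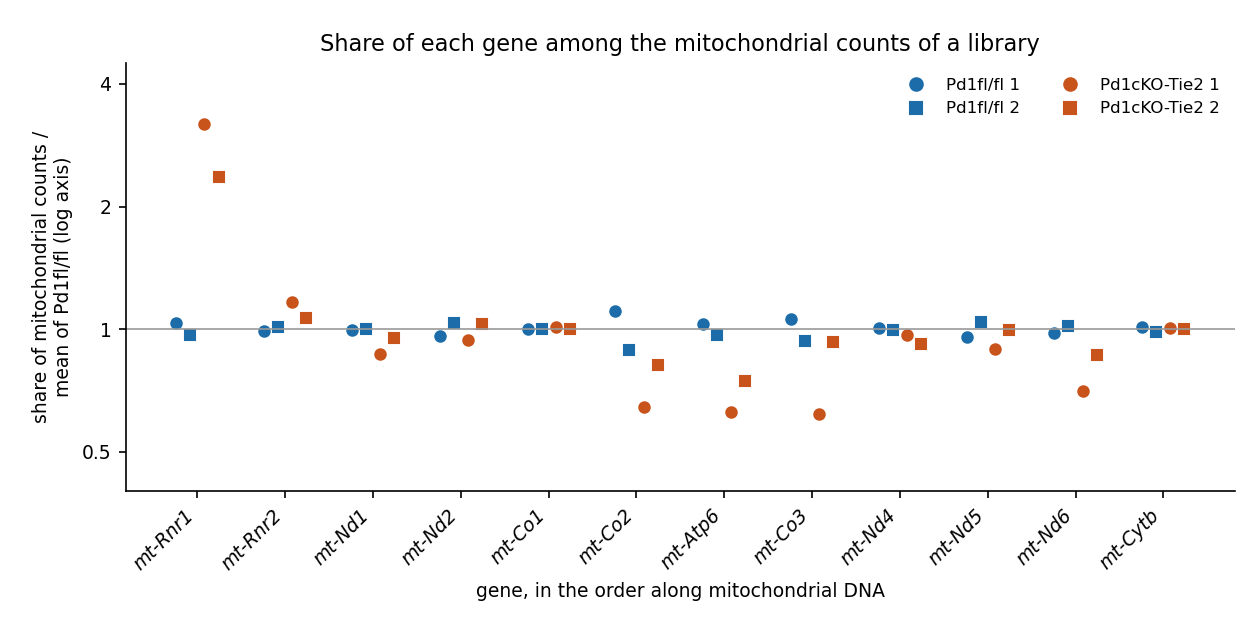
Share of each tested gene among the mitochondrial counts of a library, divided by the mean share in Pd1fl/fl (log axis). Circles and squares are the libraries numbered 1 and 2 of Pd1fl/fl (blue) and Pd1cKO-Tie2 (orange). mt-Rnr1 has shares of 0.413% and 0.386% in blue and of 1.27% and 0.946% in orange, and 6 protein-coding genes lie lower in both orange libraries.

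Nuclear genes that act on mitochondrial RNA showed few changes beside mt-Rnr1. The list for transcription of mitochondrial DNA had 0 of 8 tested genes past the criterion, with a median log2 fold change of -0.24. Polrmt, the mitochondrial RNA polymerase, had 11.5 and 23.8 TMM CPM in Pd1fl/fl, against 22.6 and 17.5 in Pd1cKO-Tie2. Tfam, which packages mitochondrial DNA and binds its promoters, had a log2 fold change of -0.011 (SE 0.29), and Tfb2m, which opens the promoters, 0.25 (SE 0.42). Among 18 tested genes for processing and stability of mitochondrial RNA, 1 was higher and 0 were lower, with a median of 0.11. The 1 gene was Elac2, the enzyme that cuts behind transfer RNAs in the precursor. It had 8.03 and 9.14 TMM CPM in Pd1fl/fl beside 18.5 and 24.05 in Pd1cKO-Tie2, so its libraries did not overlap. The log2 fold change was 1.31 (SE 0.40, edgeR adjusted p = 0.735), and the list had 0 genes past the criterion without Pd1fl/fl 1 or without Pd1cKO-Tie2 2. Lrpprc, which with Slirp protects mitochondrial messenger RNAs, had a log2 fold change of -0.016 (SE 0.29). Slirp had 6 counts in Pd1cKO-Tie2 2 beside 0 in both Pd1fl/fl libraries. In Pd1cKO-Tie2 1 it had no listed count, which leaves room for up to 4.

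The genes that modify or assemble ribosomal RNA gave a similar picture. None of 20 tested genes for modification of mitochondrial ribosomal RNA and assembly of the ribosome met the criterion, and their median was -0.066. Nsun4, which methylates 12S ribosomal RNA and acts in joining the ribosomal subunits with Mterf4, had a log2 fold change of -0.23 (SE 0.56). Mterf4 had 0.47 (SE 0.84), and Grsf1, an RNA-binding protein of mitochondrial RNA granules, 0.37 (SE 0.27). None of 81 mitochondrial ribosomal proteins met the criterion, with a median of 0.048. None of 19 mitochondrial tRNA synthetases (median 0.018) and none of 11 genes for replication of mitochondrial DNA (median -0.089) did. Of 10 regulators of mitochondrial biogenesis, 1 was higher and 0 were lower, with a median of 0.052. It was Esrra, a nuclear receptor that drives genes of oxidative metabolism, at 3.18 and 5.90 TMM CPM in Pd1fl/fl, against 11.6 and 15.6 in Pd1cKO-Tie2. Its log2 fold change was 1.58 (SE 0.59, edgeR adjusted p = 0.753). That list had 0 genes past the criterion without Pd1fl/fl 1, Pd1cKO-Tie2 1 or Pd1cKO-Tie2 2. Over these 7 lists, 2 of 165 tested genes met the criterion, beside 4.02% of all tested genes.

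Lists of RNAs without an A tail and of other cell types were read beside mt-Rnr1. Replication-dependent histone genes, whose messenger RNAs end in a stem-loop in place of an A tail, summed to 168.1 and 188.2 TMM CPM in Pd1fl/fl beside 184.8 and 184.0 in Pd1cKO-Tie2, which overlapped. Of 14 tested histone genes, 1 was higher (Hist4h4, 10 and 0 counts against 209 and 97) and 1 was lower (Hist1h4j, 14 and 18 counts against 0 and 0), with a median log2 fold change of 0.11, beside 4.02% of all tested genes past the criterion. The list had 1 gene past it with DESeq2 or without either Pd1fl/fl library, and 0 without either Pd1cKO-Tie2 library. Of 16 small structured RNAs only 4 were listed, summing to 2.42 to 4.64 TMM CPM in a library. The 1 tested, Rn7sk, had a log2 fold change of -0.50 (SE 1.17). Markers of endothelial cells were higher in both Pd1cKO-Tie2 libraries for 8 of 8 genes, beside 17.7% of all tested genes. Their median log2 fold change was 0.37, 0 met the criterion, and their sum was 11709.6 and 10994 TMM CPM in Pd1fl/fl, against 14403 and 14904 in Pd1cKO-Tie2. For the astroglial list, 4 of 5 markers were lower in both Pd1cKO-Tie2 libraries, beside 18.1% of all tested genes, with a sum of 706.6 and 710.1 against 456.5 and 356.3 TMM CPM. Fabp7 among them met the criterion (log2 fold change -1.01, SE 0.19). The list had 0 genes past it without Pd1fl/fl 2 or without Pd1cKO-Tie2 2, and 2 without either of the other libraries. For microglia, 4 of 5 markers were lower in both and 0 met the criterion, but 5 of 5 met it without Pd1cKO-Tie2 2. The sum was 1476 and 1920 against 570.9 and 1291 TMM CPM. Neuronal, oligodendrocyte-lineage, mural and erythroid markers had 0 genes past the criterion, with medians of -0.11, 0.027, -0.37 and 0.18. All 5 mural markers had a negative log2 fold change, and 2 were lower in both Pd1cKO-Tie2 libraries, beside 18.1% of all tested genes. Among 5 erythroid markers, 1 was higher and 1 lower in both, and 0 neuronal or oligodendrocyte-lineage markers were. Of the neutrophil markers, Ngp and S100a8 were tested and both were lower by the criterion, with 0 past it without Pd1fl/fl 1, Pd1cKO-Tie2 1 or Pd1cKO-Tie2 2. No marker of these lists was at 0 in all libraries. The part of the endothelial, astroglial, microglial and mural differences in that of mt-Rnr1 was not tested. Without Pd1fl/fl 1, the library with the neutrophil markers, the log2 fold change of mt-Rnr1 was 1.68.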

How the data were processed

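Brain endothelial cell RNA of 2 Pd1fl/fl and 2 Pd1cKO-Tie2 libraries was analysed. The authors deposited 4 tables, 1 per pair of a Pd1cKO-Tie2 with a Pd1fl/fl library, which hold raw read counts per gene without normalization. Their CPM columns, by the authors, served only to recover library totals, and the deposited p-values of their own comparisons were not used. The submitters' processing notes name TopHat2 2.0.12, Bowtie2 2.2.3, HTSeq 0.6.0 and mm9, but 90.1% of the gene positions in the tables, the 13 mitochondrial ones included, equal those of GENCODE M21 on GRCm38. Strand use and counting options are not given in the sources used here. One Pd1cKO-Tie2 column bears a number found on no label and was used as a library of that genotype. In joining the tables, 10 broken lines were skipped, and 23 symbols turned into dates were restored.

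Counts were tested with edgeR 4.0.16 (filterByExpr, TMM, quasi-likelihood, adjustment over 15909 genes). Single values per library were compared by exact permutation (scipy 1.17.1). Named genes were the ribosomal and protein-coding mitochondrial genes, aligned nuclear copies with a count, list members past the criterion, and 8 regulators whatever their values. Members and lists were chosen with earlier results of these data known. The scripts were tested on simulated data. Alternatives were DESeq2 1.42.0, limma-voom 3.58.1, other filters and scalings, a replicate block and leaving out each library. Added after the data had been seen were a DESeq2 fit on the filtered genes, the likelihood ratio test of edgeR, and counts of nuclear copies added to those of their mitochondrial gene. Copies were searched in GENCODE M21 transcripts, and a nuclear genome was not used here.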

Additional observations from a re-analysis of the deposited data

How the results depend on the processing

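mt-Rnr1 was the 1 mitochondrial gene past the criterion in all 16 alternatives, although one of them, adding the counts of nuclear copies, could not change its own counts. Its log2 fold change lay between 1.40 and 1.48 under the 12 alternatives that kept all libraries, and between 1.27 and 1.68 with 1 library left out. A fit with 1 library left out takes its spread from the other genotype, and the lone library is assumed to vary alike. Its adjusted p was under 0.05 in 3 alternatives, DESeq2 on all genes (7.61e-09), DESeq2 on the filtered genes (7.90e-09) and edgeR's likelihood ratio test (8.42e-06), and lay between 0.249 and 0.909 in the others. The number of genes called over the whole table lay between 445 and 936. Whether the column numbers pair the libraries is not given. The deviations of same-numbered libraries had a correlation of -0.020 across 15909 genes, which shows no shared shift but cannot exclude a pairing. With the replicate block, mt-Rnr1 had a log2 fold change of 1.47 and 445 genes were called.

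Signs of small differences turned. With limma-voom the log2 fold change was -0.046 for mt-Nd2, -0.0086 for mt-Co1 and -0.0086 for mt-Cytb. With library size scaling it was -0.052, -0.033 and -0.039, and with the replicate block -0.0072 for mt-Nd2. With 1 library left out it ranged from -0.37 to 0.13 for mt-Nd1, -0.26 to 0.25 for mt-Nd2, -0.16 to 0.20 for mt-Co1, -0.87 to 0.090 for mt-Co3, -0.22 to 0.10 for mt-Nd4, -0.33 to 0.20 for mt-Nd5 and -0.16 to 0.21 for mt-Cytb. The difference in share of library counts then ranged from -0.52 to 0.18 percentage points for protein-coding genes, from -0.49 to 0.29 for all listed genes and from -0.52 to 0.27 without mt-Rnr1. With TMM-scaled library sizes it was 0.045 for all listed genes and 0.021 without mt-Rnr1. The 5 ratios kept their direction in every alternative run. The cause of these turns was not tested. With 2 libraries per genotype, no exact permutation test of a single value can pass 0.05, and few counts stand behind mt-Nd4l, mt-Co3 and the unlisted genes.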
